A study of Sus scrofa with 2 samples.

Results

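Matrix proteoglycans, a crosslinking enzyme and fibroblast markers were followed in the long back muscle of pigs kept in constant heat, as 9 genes among the 27987 rows of the deposited expression table. They are the proteoglycan core proteins decorin (DCN), biglycan (BGN) and fibromodulin (FMOD), the crosslinking enzyme LOXL1, the procollagen processing enhancer PCOLCE, the matrix glycoprotein fibulin-1 (FBLN1), the protease inhibitor TIMP1, the growth factor receptor PDGFRA and the surface peptidase DPP4. The genes were taken by name, and each was found on 1 row. The names had been chosen on measured values, since 8 of the 9 were the highest or lowest heat to control ratios of a matrix list and a fibroblast marker list seen earlier. Why DCN was taken is not stated in the sources used here. That some of these genes stand higher and others lower in heat is therefore how they were chosen and not a result. Every ratio of theirs is a description, and so is any shift in their proportion to another gene or in their share of a sum.

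Longissimus dorsi came from castrated male pigs (barrows) of the DLY cross, with Duroc boars and Yorkshire-Landrace sows as parents. In all, 16 pigs weighing 79.0 ± 1.5 kg came from 8 litters, with 8 held at a constant 22 °C (control) and 8 at a constant 30 °C (heat) over 21 days. Each temperature had 1 library of messenger RNA, and the sources used here do not say whether several pigs were pooled into it. No significance test across pigs can be made. The temperature cannot be told apart from the pigs, their handling or the library.

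Small leucine-rich proteoglycans are secreted core proteins that bind collagen fibrils, set the spacing and thickness of the fibrils and hold growth factors such as TGF-beta in the matrix. Lysyl oxidases then crosslink collagen and elastin, and metalloproteinases, held in check by TIMPs, take the matrix apart. In skeletal muscle these genes are made mainly by fibroblasts and fibro-adipogenic progenitors, which lie between the fibres and carry PDGFRA on their surface. The tissue is bulk muscle, so fewer cells of a type and less RNA per cell cannot be told apart.

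Library totals recovered from the deposited RPKM values (reads scaled to gene length and library total) were 23608242 reads for control and 22863584 for heat. For a gene 1 kb long, 1 read was worth 0.0424 RPKM in the control and 0.0437 in the heat library. Differences are given as the RPKM ratio, heat over control, with a 95% Clopper-Pearson interval, and as a log2 ratio of RPKM + 1, which understates the difference of low genes. Levels carry an exact Poisson 95% interval. Intervals rest on the smallest whole reads that explain the values, so they may be too wide. Reads copied by PCR and not tagged with molecular identifiers are not independent, which can make the intervals too narrow. With 1 library per group they cover counting error only. Muscle identity was plain in both libraries, with skeletal actin, ACTA1, as the most abundant gene of the muscle fibre list and the 7 measured fibre genes summing to 140800 RPKM in the control and 135100 in the heat library.

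The 9 genes covered a wide range of levels. DCN was the most abundant at 185.7 RPKM in the control library (interval 181.2 to 190.3) and 189.5 in the heat library (184.9 to 194.2), and DPP4 was among the rarest, at 1.81 and 2.49 RPKM. In the control library the order was DCN, PCOLCE, BGN, TIMP1, FMOD, FBLN1, PDGFRA, LOXL1 and DPP4. The counting intervals of PCOLCE and BGN overlapped there, as did those of neighbours among TIMP1, FMOD and FBLN1, and of PDGFRA and LOXL1. Overlap does not show that levels are equal, and these pairs were not compared directly. In the heat library BGN stood above PCOLCE, and FBLN1 stood above FMOD, with no overlap in either case. The lowest 3 in heat, PDGFRA, DPP4 and LOXL1, overlapped with their neighbours. All 9 passed the minimum mean level of 1 RPKM.

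**Figure D1:**
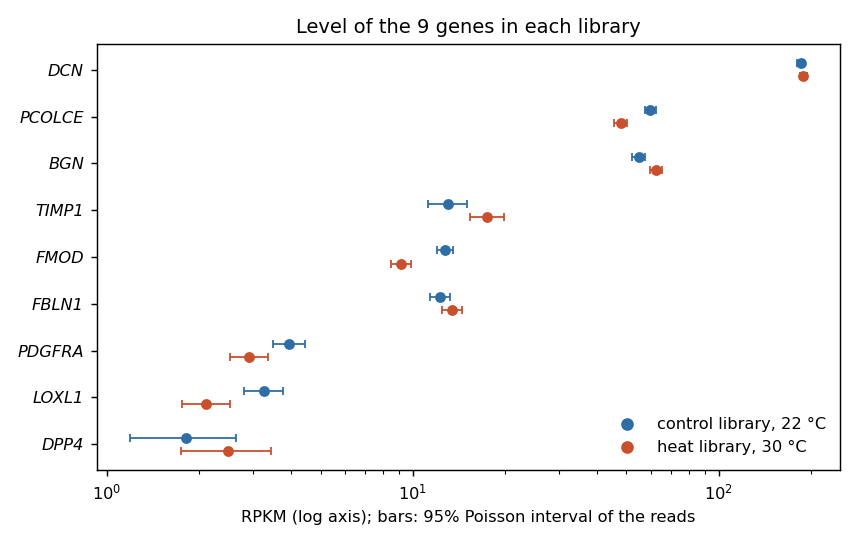
RPKM of each of the 9 genes (log axis) in the control library at 22 °C and the heat library at 30 °C, with exact Poisson 95% intervals of the reads. DCN lies near 186 and 189.5 RPKM, above all others, and the intervals of FMOD, LOXL1, PCOLCE and PDGFRA lie lower in the heat library without overlap.

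Decorin was nearly level between the libraries while fibromodulin was lower in heat and biglycan slightly higher. DCN (ENSSSCG00000000915), which coats type I collagen fibrils and binds TGF-beta, had a ratio of 1.02 with an interval of 0.986 to 1.06, on at least 6537 and 6461 reads. Its interval holds 1, and its log2 ratio of 0.03 was -0.02 after centring on the median of all genes, so its sign depends on scaling. BGN (ENSSSCG00000012766), the closest relative of decorin and also a ligand of innate immune receptors when released, was at 54.9 RPKM in the control and 62.4 in the heat library. The ratio was 1.14 (1.06 to 1.21), which lies above 1 for counting error. FMOD (ENSSSCG00000015270), which carries keratan sulfate chains and steers collagen crosslinking, was at 12.8 and 9.18 RPKM. Its ratio of 0.72 (0.653 to 0.793) rests on at least 1019 and 710 reads, and the level intervals of the libraries do not overlap.

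The 3 core proteins stood in other proportions to each other in the 2 libraries. Since FMOD and BGN were chosen on their heat to control ratios, these shifts follow from that choice and are a description. BGN was 4.30 times as abundant as FMOD per length in the control library and 6.80 times in the heat library. DCN was 14.6 times as abundant as FMOD in the control library and 20.7 times in heat, and 3.38 and 3.04 times as abundant as BGN. Of the summed RPKM of 10 measured small leucine-rich proteoglycans, DCN held 56.6% in the control and 58.1% in the heat library, BGN 16.7% and 19.1%, and FMOD 3.89% and 2.81%. Without DCN, which dominates the sum, BGN held 38.6% and 45.6% and FMOD 8.97% and 6.71%. The family sum itself was 328 RPKM in the control and 326.3 in the heat library. OGN, a listed member of the family, was not matched, so these sums and shares leave it out.

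The other family members were mostly lower in heat. Of the 16 listed genes, 15 were matched and 10 measured, of which 7 had a log2 ratio below 0, with a median of -0.11, beside 41.2% of all 13191 genes below 0 and a median of 0.05. Without the 3 chosen core proteins the median was -0.11 over 7 genes, 6 of them below 0. PRELP, which anchors basement membrane to collagen, was at 14.4 and 9.80 RPKM (ratio interval 0.523 to 0.884). KERA, the keratan sulfate proteoglycan keratocan, was at 4.87 and 3.13 RPKM (0.417 to 0.98). LUM, lumican, a regulator of fibril growth, was at 24.2 and 21.96 RPKM (0.851 to 0.969). OMD, osteomodulin, went the other way, at 1.71 RPKM in the control and 2.52 in the heat library (1.24 to 1.75). The intervals of ASPN (5.29 and 4.83 RPKM), ECM2 (14.02 and 12.9) and PODN (10.19 and 10.07) hold 1. EPYC and OPTC were at 0 in both libraries.

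**Figure D2:**
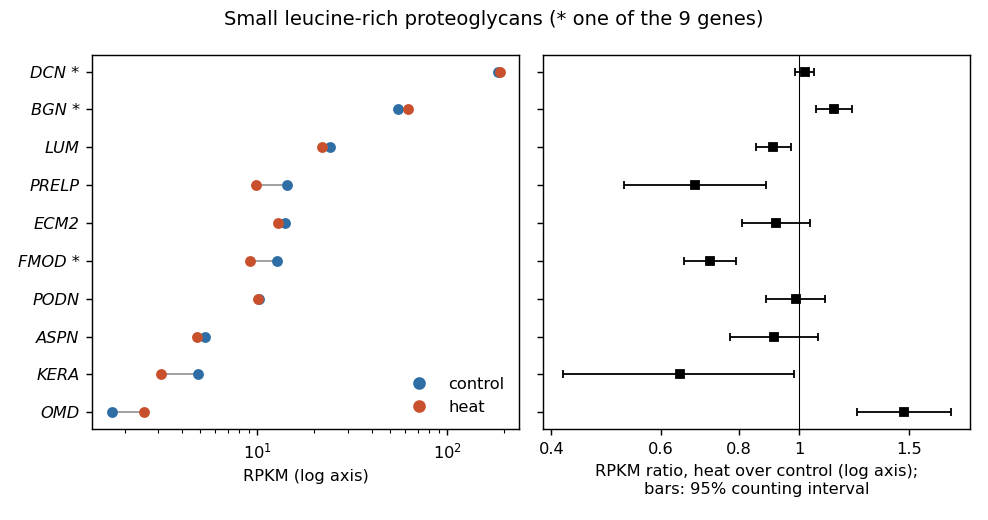
Left, RPKM (log axis) of the 10 measured small leucine-rich proteoglycans in each library; right, the RPKM ratio of heat over control (log axis) with its 95% counting interval. FMOD, PRELP, KERA and LUM lie below 1 with intervals that do not reach it, and BGN and OMD lie above 1.

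Among crosslinkers, LOXL1 (ENSSSCG00000001914), the lysyl oxidase that acts mainly on elastin, was at 3.26 RPKM in the control (2.81 to 3.76) and 2.11 in the heat library (1.75 to 2.53). The ratio was 0.649 (0.512 to 0.819) on at least 191 and 120 reads, and the levels do not overlap. Its relatives stood on the same side. LOX, the founding member, which crosslinks collagen and elastin, was at 3.56 and 2.94 RPKM with an interval of the ratio that holds 1 (0.637 to 1.07). LOXL3 was at 1.17 and 0.898 RPKM (0.587 to 0.999). The 3 measured lysyl oxidases had a median log2 ratio of -0.21 and summed to 7.99 RPKM in the control and 5.95 in the heat library. LOXL4, under the minimum level, was at 0.55 and 0.731 RPKM and is named because it stood on the other side. LOX was 1.09 times as abundant as LOXL1 in the control and 1.39 times in the heat library. Their ratio intervals overlap, so a shift between LOX and LOXL1 is not shown.

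PCOLCE (ENSSSCG00000027466) binds the C-terminal propeptide of procollagen and speeds its removal by BMP1. It was at 59.8 RPKM in the control (57.3 to 62.3) and 47.8 in the heat library (45.6 to 50.2), a ratio of 0.80 (0.751 to 0.853) that lies below 1. COL1A2, a chain of the type I collagen whose precursor it binds, was at 203.4 and 164.4 RPKM, so PCOLCE amounted to 0.294 of COL1A2 in the control and 0.291 in the heat library. Set against COL3A1 (484.1 and 438.6 RPKM), the chain of type III collagen, PCOLCE was at 0.123 and 0.109. DCN, in contrast, was at 0.913 of COL1A2 in the control and 1.15 in the heat library. In the fibrillar collagens 5 of 6 measured genes had a log2 ratio below 0 (median -0.20), and 5 had a ratio interval below 1. COL1A1 was listed but not matched. Each of the 5 rests on at least 1183 reads per library, where small differences can put an interval below 1. Among the 3921 genes with a mean RPKM of 10 or more and a recovered interval, 17.8% had one below 1 and 26.8% one above 1. The regulatory chains COL5A1 (23.6 and 17.9 RPKM), COL5A2 (28.2 and 23.5) and COL5A3 (14.1 and 13.1) were on that side, and COL11A1 was at 1.53 and 1.60 RPKM with an interval that holds 1.

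Genes of collagen processing were split. Of 14 measured genes including PCOLCE, 8 were below 0 and 6 above, with a median of -0.05, and 4 had intervals below 1 and 4 above 1, beside 10.4% and 20.5% of the 13108 genes with a recovered interval. FKBP10, an endoplasmic reticulum chaperone of procollagen, was the lowest at 5.19 and 2.99 RPKM (ratio interval 0.426 to 0.772). P4HA3, a prolyl hydroxylase subunit, was the highest at 1.06 and 2.32 RPKM (1.56 to 3.09). Where only genes whose mean RPKM reached 5 were kept, the median of this list was 0.07, so its sign depends on the filter.

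FBLN1 (ENSSSCG00000000010), a glycoprotein of elastic fibres and basement membranes, was at 12.3 RPKM in the control (11.4 to 13.3) and 13.4 in the heat library (12.4 to 14.4). The ratio of 1.09 had an interval of 0.979 to 1.21 on at least 666 and 703 reads, and it holds 1. FBLN2, a closely related fibulin named for that comparison, was at 9.25 RPKM in both libraries. The list of fibulins and elastic fibre proteins had 7 of 12 measured genes below 0, with a median of -0.04. ELN, elastin itself, was the most abundant at 19.4 and 16.6 RPKM (0.76 to 0.956). EMILIN1, an elastic fibre glycoprotein, was lowest at 5.31 and 4.29 RPKM, and EFEMP1, fibulin-3, was highest at 3.86 and 5.04 RPKM. LOXL1 was at 0.168 of ELN in the control and 0.128 in the heat library.

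TIMP1 (ENSSSCG00000012277), a secreted inhibitor of most matrix metalloproteinases, was at 13.01 RPKM in the control (11.2 to 15.1) and 17.5 in the heat library (15.4 to 19.9). Its ratio of 1.35 (1.11 to 1.65) rests on at least 180 and 235 reads, and the levels do not overlap. TIMP1 was the only one of 4 listed TIMPs that was matched, so the family cannot be described. The proteases mostly stood on the other side. In the list of metalloproteinases and aggrecanases, which also holds their membrane inhibitor RECK, 10 of 11 measured genes were below 0, with a median of -0.23, and 6 had intervals below 1, where 10.4% of all genes with a recovered interval did, and none had one above. MMP2, gelatinase A and the most abundant, was at 49.3 and 41.5 RPKM (0.782 to 0.904). ADAM17, a sheddase, was lowest at 4.30 and 3.13 RPKM, and ADAM10, a related sheddase, highest at 5.22 and 5.86. MMP2 was 3.79 times as abundant as TIMP1 in the control library and 2.37 times in the heat library. MMP14, the membrane protease that activates MMP2, was at 0.523 of TIMP1 in the control and 0.325 in the heat library, and was singled out after its values were seen. With the other listed TIMPs not matched, no balance of proteases and their inhibitors is read from these proportions.

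Of the fibroblast receptors, PDGFRA (ENSSSCG00000008841), the defining surface marker of fibro-adipogenic progenitors, was at 3.94 RPKM in the control (3.49 to 4.43) and 2.92 in the heat library (2.53 to 3.36). The ratio of 0.742 (0.615 to 0.895) rests on at least 274 and 197 reads and lies below 1. PDGFRB, the related receptor of pericytes, was at 5.77 and 5.91 RPKM, an interval of 0.892 to 1.17. It was thus 1.47 times as abundant as PDGFRA in the control and 2.02 times in the heat library. The ligands PDGFA (7.58 and 7.72 RPKM), PDGFC (2.21 and 2.58) and PDGFD (2.44 and 1.83) and the receptor-like PDGFRL (6.72 and 6.53) all had intervals that hold 1. The 6 measured genes of this pathway had a median of -0.01, with 3 above 0 and 3 below.

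DPP4 (ENSSSCG00000015894), a serine peptidase on the surface of a fibroblast progenitor subset, was at 1.81 RPKM in the control (1.19 to 2.63) and 2.49 in the heat library (1.75 to 3.45). The ratio of 1.38 has an interval of 0.813 to 2.36 that holds 1, and it rests on as few as 27 and 36 reads. A difference was not detectable with these smallest reads, which can be a fraction of the true ones. FAP, its near relative on activated fibroblasts, was at 5.70 and 5.45 RPKM (0.827 to 1.10). It was 3.15 times as abundant as DPP4 in the control and 2.19 times in the heat library. The ratio intervals of FAP and DPP4 overlap and both hold 1, so a shift between them is not shown. The cytosolic peptidases DPP8 (20.1 and 22.5 RPKM) and PREP (18.7 and 21.6) had intervals above 1. So did 26.8% of the genes with a mean RPKM of 10 or more and a recovered interval. DPP3 and DPP10 were at 0 in both libraries.

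Read against all genes, 3 of the 9 (LOXL1, FMOD and PDGFRA) had a log2 ratio below 0 of at least 0.322 in size, which 7.77% of the 13191 genes reached on that side. On the other side 1 of the 9, TIMP1, was at 0.322 or higher, beside 12.7% of genes. Among the 6990 genes with a symbol, as all 9 have, 295 were at this size on the lower and 539 on the higher side. Nothing is read from these counts, since the genes were chosen on this ratio. PDGFRA (-0.332) lay just inside this size and PCOLCE (-0.316) and DPP4 (0.313) just outside. The counting interval lay below 1 for 4 of the 9 (LOXL1, FMOD, PCOLCE, PDGFRA), above 1 for 2 (TIMP1, BGN) and held 1 for 3 (DCN, FBLN1, DPP4), where 10.4% of the 13108 genes with a recovered interval had one below 1 and 20.5% one above. Nothing is read from these counts either. All genes had 1025 at this size on the lower and 1674 on the higher side, and the balance turned to 1319 and 1293 after centring on the median and to 1412 and 1149 after trimmed mean rescaling. With either of these, PCOLCE was also past that size. The central 95% of genes lay between -0.57 and 0.66, and all 9 fell inside.

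**Figure D3:**
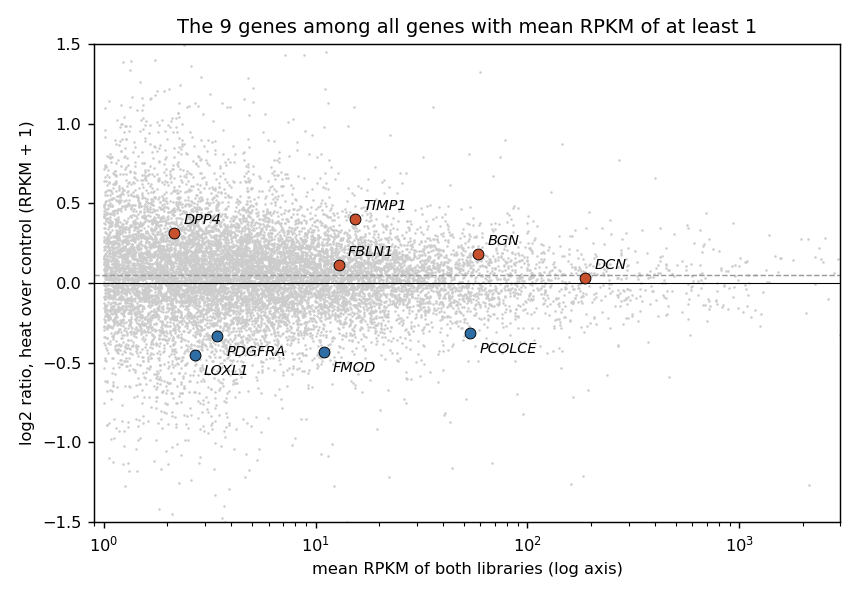
Log2 ratio of heat over control (RPKM + 1) against mean RPKM (log axis) for the 13191 genes at or above a mean of 1 (grey; a few lie beyond the axes) and the 9 genes (orange above 0, blue below). The dashed line is the median of all genes at 0.05; FMOD and LOXL1 lie lowest of the 9 at -0.43 and -0.45, and TIMP1 highest at 0.40.

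Markers of the cells that make these genes, and of others in the tissue, were read for the same libraries. Of 23 listed fibroblast and fibro-adipogenic markers, 15 were matched and measured and 9 were below 0, with a median of -0.10. Their summed level was 1205 RPKM in the control and 1102 in the heat library, of which the collagens COL3A1 and COL1A2 made up most. Without the 5 of them among the chosen genes the median was -0.12, with 7 of 10 below 0. No fibroblast marker that was matched was at 0. VIM, an intermediate filament of mesenchymal cells, was at 127.6 and 129.3 RPKM, and PI16, which marks the same progenitor subset as DPP4, at 22.3 and 18.4 RPKM, both singled out after their values were seen. Tendon cell markers, 5 measured of 8 and FMOD among them, summed to 30.8 and 28.7 RPKM (median -0.07), with TNMD lowest (-0.69) and EGR1 highest (0.55). Their part in the values of FMOD was not tested.

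The other marker lists did not share 1 direction. Endothelial markers (10 of 14 measured) had a median of 0.04 and summed to 186.5 and 205.0 RPKM, led by PECAM1, with TIE1 lowest (-0.13) and ERG highest (0.40). Smooth muscle and pericyte markers (9 of 12) had a median of -0.06 and summed to 2338 and 2715, most of it DES, desmin, which fibres also make. Macrophage markers (7 of 14) had a median of -0.06 and summed to 41.4 and 39.9, from TYROBP (-0.48) to LYZ (1.04). Adipocyte markers (5 of 12) had a median of -0.19 and summed to 59.1 and 56.7, from CIDEC (-0.93) to PLIN4 (0.23), with RETN at 0. Lymphocyte markers (4 of 14) had a median of 0.09 and satellite cell markers (5 of 10) one of 0.04. Schwann cell markers (2 of 8) were at -0.37 and muscle fibre genes (7 of 16) at -0.08. The part of cell composition in the values of the 9 genes was not tested.

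**Figure D4:**
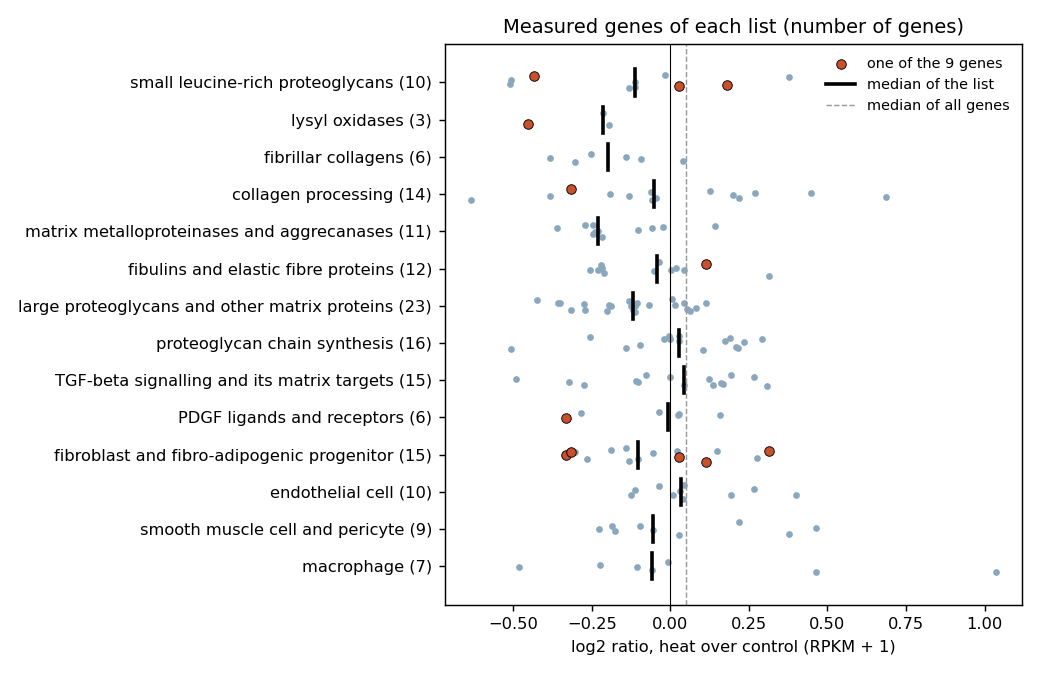
Log2 ratio of heat over control (RPKM + 1) for every measured gene of 14 lists; orange points are 8 of the 9 genes (TIMP1 is in none of these lists), black bars the list medians, and the dashed line the median of all genes at 0.05. Medians run from -0.23 for metalloproteinases and -0.21 for lysyl oxidases to 0.045 for TGF-beta genes, and points of most lists lie on both sides of 0.

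Several of these genes lie side by side on the chromosome, by gene order in the RefSeq annotation of another pig assembly, Sscrofa11.1, than the build of the files. This look at gene neighbours was added after the values had been seen. FMOD lies next to PRELP, and both were lower in heat by a similar factor. FMOD was 0.888 of PRELP in the control and 0.937 in the heat library, and their log2 ratios differed by 0.07, where 2826 adjacent pairs of measured genes had a median difference of 0.17 and 24.3% were as close. The next gene, OPTC, was at 0. DCN lies beside LUM and KERA. The log2 ratios of these 3 were 0.03, -0.13 and -0.51. The ratio intervals of LUM and KERA overlap, so a difference between those neighbours is not shown. LUM was 4.97 times as abundant as KERA in the control and 7.02 times in heat. OMD and its neighbours ASPN and ECM2 lay on opposite sides of 0. DPP4 and FAP, separated by GCG alone, also differed in direction, with the interval of each ratio holding 1.

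**Figure D5:**
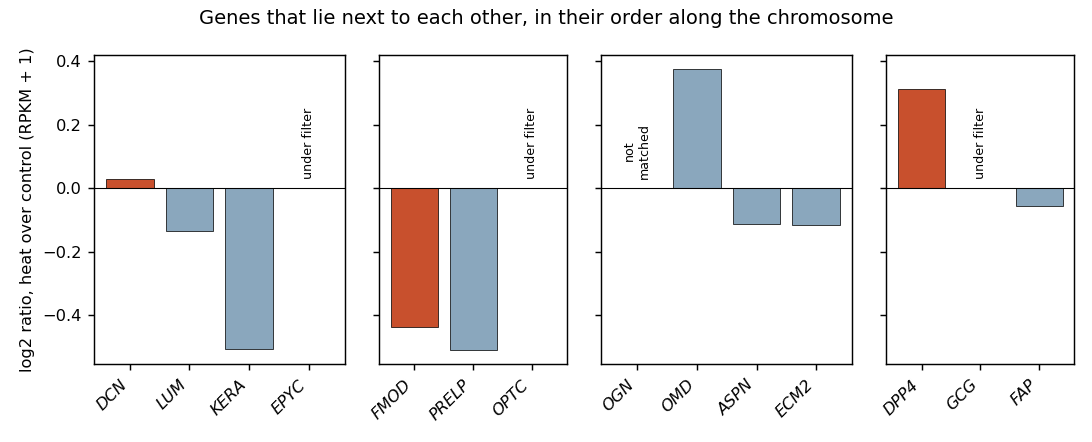
Log2 ratio of heat over control (RPKM + 1) for groups of genes that follow each other along the chromosome (RefSeq order); orange bars are genes of the 9. FMOD and PRELP both lie near -0.5, whereas DCN, LUM and KERA run from 0.03 to -0.51; genes without a bar were under the minimum level or not matched.

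The labels do not describe the kit as keeping strand, and reads of overlapping genes then cannot be told apart. TIMP1 overlaps SYN1, a synaptic vesicle gene listed at 6.07 RPKM in the control and 4.45 in the heat library, which is lower in heat (0.634 to 0.847) while TIMP1 is higher. PCOLCE overlaps FBXO24, at 0.165 and 0.316 RPKM, well under the level of PCOLCE. LOXL1 and DPP4 each overlap a long noncoding RNA that was not matched. STOML1, the gene before LOXL1, was at 1.41 and 2.75 RPKM (1.44 to 2.65), opposite to LOXL1. What overlapping genes add to these values was not tested.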

How the data were processed

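The deposited table gives 1 RPKM value per gene and library, computed by the authors. Per the submitters' processing notes, which give no role or order, the build was Sscrofa10.2 and the tools Cufflinks 1.3.0, TopHat 1.4.0 and Bowtie. The counting tool and the treatment of reads with several matches are not given in the sources used here. A table of pig gene names matched 11374 of 27987 rows. Since all values of a gene are whole reads times a fixed factor, library totals and the smallest whole reads of each gene were recovered (84.8% of 400 genes then had lengths whole within 0.01 bp). The effect was log2((heat + 1)/(control + 1)) over genes whose mean RPKM reached 1, and a size of 0.322 was the threshold. The genes named beside the 9 are, in each list, the highest and lowest by log2 ratio and the most abundant, and every measured gene of the members' families; others are named as such. The members and lists were chosen with earlier results of these data known. The alternatives were another pseudocount, filter, threshold or scaling. Steps were tested on simulated data. Python 3.11.15, numpy 2.4.6, pandas 2.3.3 and scipy 1.17.1 were used. No genome, promoter or protein sequence was used here.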

Additional observations from a re-analysis of the deposited data

How the results depend on the processing

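No paired analysis was possible because each of the 2 groups has only 1 library. Genes past the threshold, 1025 lower and 1674 higher, numbered 334 and 431 with a pseudocount of 5, and 1607 and 2809 with no filter. They numbered 336 and 475 where the mean RPKM reached 5, 313 and 454 at 1.5-fold, and 295 and 539 with a symbol only. The genes tested were 6416 where the mean RPKM reached 5, 6990 with a symbol only and 21398 with no filter. What else changed these counts was not tested. Of the 9 genes, 3 were lower and 1 higher past the threshold. There were 2 higher with a pseudocount of 0.1 and without the 10 highest genes in the scaling, 1 lower with a pseudocount of 5 and where the mean RPKM reached 5, and 0 and 0 at 1.5-fold. Without the 10 highest genes in the scaling 2 were lower, as PDGFRA was then at -0.299. DCN was at -0.02 centred and -0.05 with trimmed mean rescaling (0.03 as deposited), and no other of the 9 changed sign under 6 alternatives. LOXL1 ranged from -0.60 to -0.21, FMOD from -0.51 to -0.33, PDGFRA from -0.42 to -0.17, PCOLCE from -0.40 to -0.27, TIMP1 from 0.32 to 0.45, DPP4 from 0.14 to 0.44, BGN from 0.10 to 0.22 and FBLN1 from 0.04 to 0.16. The median of collagen processing genes turned from -0.05 to 0.07 where the mean RPKM reached 5 and fewer genes are left. The medians of 7 other lists kept their sign, but that of metalloproteinases (-0.23) was -0.085 with no filter and -0.12 with a pseudocount of 5, and that of lysyl oxidases (-0.21) was -0.35 with a pseudocount of 0.1 and -0.11 with 5. The cause was not tested. Trimmed mean rescaling and scaling without the 10 highest genes were run on list medians only after the data were seen. DPP4 rests on the fewest recovered reads of the 9, at least 27 and 36, and the true reads can be more.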

Other observations

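Hydroxylases modify collagen before secretion, and those measured stood on both sides. The prolyl hydroxylases P4HA1 (13.9 and 16.3 RPKM) and P4HA2 (15.4 and 18.8) and the lysyl hydroxylase PLOD2 (4.05 and 5.89), singled out after their values were seen, were at log2 ratios of 0.22, 0.27 and 0.45. The lysyl hydroxylase PLOD1 was at -0.06, and the collagen prolyl hydroxylase genes P3H1, P3H2 and P3H3 were at -0.06, 0.20 and -0.13. The enzymes that build proteoglycan chains had a median of 0.03 over 16 measured genes, 9 of them above 0, led by the sulfotransferase CHST3 (1.39 and 1.92 RPKM) and with B3GAT3, a linkage enzyme, as the most abundant (21.95 and 25.5). That list also held the core protein KERA, which was its lowest measured gene. CHST1, another sulfotransferase, lay just under the minimum level and was lower still, at 1.54 and 0.389 RPKM (ratio interval 0.118 to 0.496). It was singled out after its values were seen. Genes of TGF-beta signalling had a median of 0.045 over 15 genes, from SMAD7, its inhibitor (2.87 and 1.75 RPKM), to the ligand TGFB1 (4.62 and 5.97), with SMAD4 the most abundant (18.2 and 20.5). The list of large proteoglycans and other matrix proteins had 16 of 23 measured genes below 0 and a median of -0.12, from HSPG2, perlecan (45.8 and 33.9 RPKM), to THBS2 (13.4 and 14.6), with SPARC the most abundant (418.8 and 389.1).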
